A study of Mus musculus with 127 samples.

Results

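Multipotent progenitors (MPP) of young mice were followed through the first hour of stimulation with 2 ligands of Toll-like receptors (TLRs). Cells were isolated from mouse bone marrow by cell surface markers and grown at 37 degrees in a medium for haematopoietic stem and progenitor cells. Stimulated cells received 100 ng/ml lipopolysaccharide (LPS) together with 1 ug/ml Pam3csk4, a synthetic lipopeptide. Libraries were chosen by label: MPP of young mice 1, 2 and 3, collected at 0 h before exposure and after 0.5 h and 1 h with the ligands. They make up 11 of the 127 deposited libraries. The 0 h sample of mice 1 and 2 was sequenced as 2 technical repeats, which were summed, and every other sample was 1 library, so 9 libraries of 3 mice were compared. The 0 h libraries of mice 1 and 2 carry the label of the stimulated course and that of mouse 3 the label of untreated cells. All 3 were read as unexposed. The labels give the age of the mice only as young and name no strain, sex, genotype or sort gate. No library without ligand at 0.5 h or 1 h was analysed here, so in this comparison the ligands and the first hour of culture cannot be told apart.

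LPS is sensed by Tlr4 with its partners Md-2 (Ly96) and Cd14, and Pam3csk4 by Tlr2 paired with Tlr1. Both receptors signal through the adaptor Myd88 and IRAK kinases to the IκB kinase complex and to MAP kinases. IκB proteins hold NF-kB in the cytoplasm, and their destruction frees NF-kB to switch on target genes, among them genes for its own inhibitors. MAP kinases act on transcription factors that are already present, and these switch on immediate early genes within minutes and without new protein synthesis. MPP lie downstream of the haematopoietic stem cells and feed the myeloid and lymphoid lineages. Stem and progenitor cells carry TLRs, and TLR signalling in them is known for favouring myeloid output.

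Polyadenylated RNA was read by SMART-seq2, which copies whole transcripts from few cells, without separating single cells. The 9 libraries held 2420912 to 11636725 counts (median 4742175), with 12005 to 13502 genes detected. Levels are given in CPM, counts scaled to a common library size, always in the order mouse 1, mouse 2, mouse 3. In bulk RNA, fewer cells of a type and less RNA per cell cannot be told apart. Flt3, a growth factor receptor of MPP, stood at 599 ± 348 CPM in MPP at 0 h against 61.8 ± 65.0 in long-term stem cells (LT) of the same mice, and Cd34 at 977 ± 431 against 180 ± 107 (mean ± SD, n = 3). Slamf1, a stem cell marker, stood at 1.49 ± 1.18 against 24.8 ± 23.3 CPM. Hlf, also listed as low in MPP, stood at 110 ± 55.0 against 112 ± 96.1. Genes of mature neutrophils went against the label in 2 of 3 mice: Ngp, a granule protein, stood at 11478, 4434 and 24.4 CPM at 0 h. The 11 late neutrophil genes, all detected, summed to 52832, 23712 and 123 CPM at 0 h, 55263, 21273 and 103 at 0.5 h and 62911, 22447 and 92.2 at 1 h. The sums differed far more between mice than between times. By edgeR 0 of the 11 genes passed at either time and 0 had an unadjusted p under 0.05, as by DESeq2 and limma voom, and 1 passed at 1 h with mouse as a block. Genes of other lineages also differed between mice at 0 h. Monocyte and macrophage markers summed to 10637, 4499 and 430 CPM, B cell markers to 398, 218 and 60.0 and erythroid markers to 1565, 1616 and 632. T and NK cell markers summed to 253, 248 and 182 CPM and megakaryocyte markers to 129, 51.4 and 57.2. In the deposited column names each mouse also has its own date, so mouse and date cannot be told apart.

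After 0.5 h the genes that passed had risen, led by immediate early genes, early chemokines and inhibitors of NF-kB and MAP kinase signalling. Of 11676 genes tested, 73 (0.625%) were higher and 0 (0%) were lower by edgeR's quasi-likelihood test at a Benjamini-Hochberg adjusted p under 0.05. Without adjustment 452 genes had a p under 0.05. A block for mouse gave 143 that rose (1.22%) and 3 that fell (0.0257%). DESeq2 called 149 higher and 5 lower, and limma voom 58 and 1. The edgeR count fell most without mouse 2, to 0 genes, with 239 at an unadjusted p under 0.05. With the block as well, 67 genes passed without mouse 2. Of the 122 calls of named genes at 0.5 h and 1 h, 1 was kept without mouse 2 and 86 with the block as well. In both of these fits 0 reversed direction. Without mouse 1 the edgeR count was 36 and without mouse 3 it was 54. These fits hold fewer samples, and the cause of the lower counts was not tested.

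**Figure D1:**
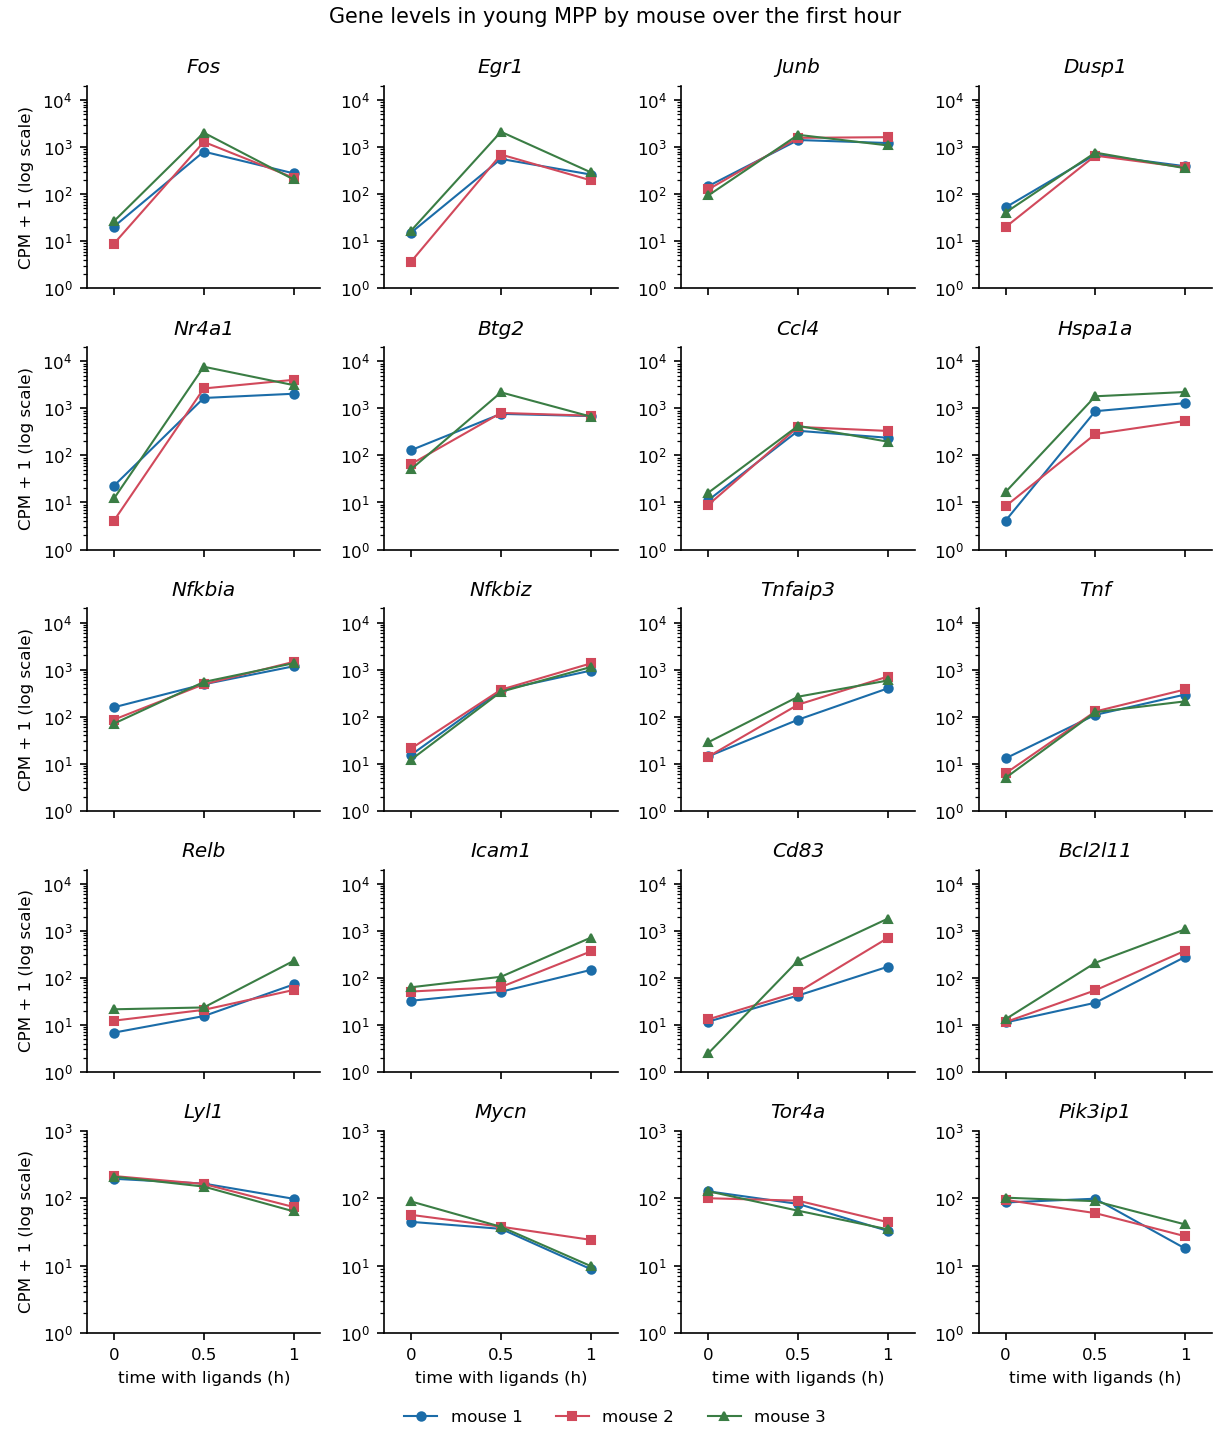
Levels of 20 genes in the 3 mice at 0 h, 0.5 h and 1 h (CPM + 1, log axis; each line is 1 mouse). Fos and Egr1 were higher at 0.5 h than at 1 h in every mouse, Nfkbia and Nfkbiz were highest at 1 h in every mouse, and Hspa1a was lowest in mouse 2 at both stimulated times.

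Immediate early genes had more calls at 0.5 h than any other list examined. Of 35 listed genes 32 were tested, 17 rose and 0 fell at 0.5 h, with a median log2 change of 3.45 against -0.02 over all genes tested. Fos, the AP-1 subunit classically induced by growth factors and stress, stood at 19.6, 7.94 and 25.9 CPM at 0 h, 805, 1296 and 2035 at 0.5 h and 277, 224 and 206 at 1 h. The 3 time points did not overlap, and every mouse had its highest level at 0.5 h. The log2 change was 6.38 ± 0.51 (SE) at 0.5 h with an adjusted p of 0.00039, and 3.92 ± 0.46 at 1 h with 0.0021 (edgeR, n = 3). Junb, another AP-1 subunit, was already present at 148, 126 and 93.6 CPM, reached 1421, 1579 and 1834 at 0.5 h and stood at 1225, 1634 and 1090.2 at 1 h. Both stimulated times lay far above 0 h and overlapped each other. The rise at 0.5 h was 3.81 ± 0.27 on the log2 scale (edgeR adjusted p = 0.00026).

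Egr1, a zinc finger factor downstream of MAP kinase, went from 14.4, 2.72 and 15.9 CPM to 562, 698 and 2128 at 0.5 h and 261, 197 and 292 at 1 h. Mouse 3 was the highest of the 3 at 0.5 h, and within each mouse the level at 1 h lay below that at 0.5 h. Its log2 change was 6.77 ± 0.76 at 0.5 h (edgeR adjusted p = 0.0029) and 4.70 ± 0.70 at 1 h (0.0076). Nr4a1, an orphan nuclear receptor, was at 21.7, 3.13 and 11.2 CPM at 0 h, 1664, 2651 and 7685 at 0.5 h and 2047, 4046 and 3123 at 1 h. Every stimulated library lay above every 0 h library. The log2 change at 0.5 h was 8.44 ± 0.91 (edgeR adjusted p = 0.0021). Fosb rose by 6.20 ± 0.74, Ier2 by 3.05 ± 0.30, Jun by 4.73 ± 0.84 and the stress factor Atf3 by 5.71 ± 1.00 at 0.5 h. Jun differed between mice before exposure, at 14.1, 38.7 and 190.4 CPM at 0 h, and reached 1402, 1329 and 3153 at 0.5 h. Without mouse 2 the log2 changes of these 8 genes at 0.5 h were 3.07 to 8.22, with a lowest adjusted p of 0.11. With mouse as a block as well, these passed without mouse 2 except Jun and Atf3. Leaving out mouse 1 ended the calls of Egr1 and Jun.

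Several immediate early genes were silent or nearly so before exposure, and their change is given as a ratio of pooled CPM over the 3 mice. For genes at 0 counts at 0 h it is a lower bound against 3 counts over the group, and for genes with 1 to 3 counts a ratio with its 95% counting interval, which covers counting error only, since the reads carry no molecular identifiers. Nr4a2, a sister of Nr4a1, had 2 counts in all at 0 h and stood at 128, 150.4 and 394 CPM at 0.5 h and 178, 416 and 195 at 1 h. The ratio was 2400 (664 to 19800) at 0.5 h and 2680 (740 to 22100) at 1 h. Plk2, a polo-like kinase, had 3 counts at 0 h and 83.1, 121 and 353 CPM at 0.5 h, a ratio of 1330 (454 to 6440). Egr2 had 1 count at 0 h, 47.1, 25.2 and 95.1 CPM at 0.5 h and 22.6, 10.6 and 14.6 at 1 h. The level of Egr2 at 1 h lay below that at 0.5 h in each mouse, and the ratios to 0 h were 1250 (223 to 49300) and 328 (58.3 to 13000).

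Ptgs2, the inducible cyclooxygenase that makes prostaglandins, went from 3 counts to 93.9, 53.7 and 77.8 CPM at 0.5 h, a ratio of 541 (185 to 2630). The genes without a count at 0 h were Fosl1, an AP-1 subunit, Nr4a3, the EGF receptor ligand Areg, the receptor partner Ramp3 and the cytokine Lif. At 0.5 h, pooled over the mice, Fosl1 was at least 141-fold higher, Lif at least 113-fold, Areg at least 87.7-fold, Ramp3 at least 63.9-fold and Nr4a3 at least 60.4-fold. By mouse, Fosl1 stood at 36.9, 19.4 and 4.22 CPM at 0.5 h, Lif at 14.4, 11.6 and 21.5 and Areg at 5.41, 6.20 and 24.4. Ramp3 stood at 5.62, 6.61 and 14.9 CPM at 0.5 h and 16.2, 30.4 and 78.4 at 1 h, at least 281-fold over 0 h by then. The edgeR adjusted p of these 5 genes at 0.5 h ran from 0.014 (Lif) to 0.023 (Fosl1). Without a count at 0 h, these genes entered the test only through their stimulated libraries and could only rise. Without mouse 2, the lowest adjusted p of these 5, Nr4a2, Plk2, Egr2 and Ptgs2 at 0.5 h was 0.060, and with the block as well these passed except Nr4a3, Areg and Lif. Areg, Nr4a3 and Ramp3 also lost the call without either of the other mice, Fosl1 without mouse 1 and Lif without mouse 3.

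Some genes that damp signalling also passed at 0.5 h. Among 18 inhibitors of MAP kinase and G protein signalling, 5 rose and 0 fell at 0.5 h (median log2 change 2.26). Dusp1, a phosphatase that switches off p38 and JNK, stood at 51.6, 19.0 and 39.8 CPM at 0 h, 696, 660.5 and 767 at 0.5 h and 393, 371 and 356 at 1 h. The 3 time points were separate, with 1 h between the other two. Its log2 change was 4.37 ± 0.35 at 0.5 h (edgeR adjusted p = 0.00039) and 3.53 ± 0.33 at 1 h (0.0010). Dusp2, a nuclear phosphatase, rose by 3.10 ± 0.37, the ERK phosphatase Dusp6 by 1.34 ± 0.24 and Rgs2, which shortens G protein signals, by 1.96 ± 0.33.

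Of 12 tested genes for mRNA decay and restraint of growth, 4 rose at 0.5 h (median 1.52) and 5 at 1 h (median 1.80). Zfp36, which brings AU-rich mRNAs such as that of Tnf to decay, was at 38.0, 38.9 and 18.7 CPM at 0 h and 352, 446 and 329 at 0.5 h. At 1 h it stood at 314, 457 and 229, a range overlapping that at 0.5 h and well above 0 h. Its log2 change at 0.5 h was 3.65 ± 0.38 (edgeR adjusted p = 0.0016). Btg2, an antiproliferative factor that recruits the deadenylase complex, rose by 4.02 ± 0.50, and Tob2 of the same family by 1.49 ± 0.25. Pnrc1, which acts in mRNA decapping and nuclear receptor signalling, rose by 1.61 ± 0.24. Without mouse 2, the 8 feedback genes named had log2 changes of 1.41 to 4.12 at 0.5 h and a lowest adjusted p of 0.060. Dusp1, Dusp2 and Zfp36 passed without mouse 2 with the block as well. Dusp6, Rgs2, Tob2 and Pnrc1 did not pass without mouse 1 or without mouse 3, nor did Zfp36 without mouse 1.

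The NF-kB group was smaller at 0.5 h: 5 of 29 genes rose and 0 fell, with a median log2 change of 0.35. The 5 were Nfkbia, Nfkbiz, Nfkbid, Tnfaip3 and Gadd45b, of which the first 4 encode inhibitors or regulators of NF-kB itself. Gadd45b did not pass at 0.5 h by edgeR without mouse 3 (adjusted p = 0.27) or without mouse 2, and passed without mouse 1 (0.021). Nfkbia, the classical IκB protein, stood at 157, 85.5 and 70.2 CPM at 0 h, 486, 487 and 545 at 0.5 h and 1174, 1457 and 1364 at 1 h. Each time point lay above the one before it in every mouse, with no overlap. The log2 change was 2.37 ± 0.31 at 0.5 h (edgeR adjusted p = 0.0067) and 3.86 ± 0.33 at 1 h (0.00060). Nfkbiz, a nuclear IκB protein that helps switch on a second tier of targets, stood at 14.4, 20.1 and 11.2 CPM, then 363, 373 and 336, then 949.9, 1350.1 and 1130.3. The 3 mice were close to each other at each time. Its log2 change was 4.65 ± 0.29 at 0.5 h and 6.41 ± 0.32 at 1 h, with adjusted p of 0.00012 and 2.3e-05 (edgeR).

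Nfkbid, another nuclear IκB protein, went from 23.9, 7.31 and 8.21 CPM to 324, 327 and 587 at 0.5 h and 402, 518 and 422 at 1 h. Tnfaip3, the ubiquitin-editing enzyme A20 that restrains the pathway, stood at 13.3, 13.2 and 27.6, then 85.2, 179 and 264, then 398, 710.4 and 586 CPM. Tnfaip3 increased from 0.5 h to 1 h in every mouse, whereas the ranges of Nfkbid at 0.5 h and 1 h overlapped. Their log2 changes were 5.03 ± 0.51 and 3.40 ± 0.46 at 0.5 h (edgeR adjusted p = 0.0015 and 0.0079). Leaving out mouse 2 gave log2 changes of 2.27 to 4.89 for Nfkbia, Nfkbiz, Nfkbid and Tnfaip3 at 0.5 h, and a lowest adjusted p of 0.058. With the block as well, these passed except Nfkbia. These 4 genes passed without mouse 1 and without mouse 3.

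Of 36 cytokine and chemokine genes, 23 were tested and 6 rose at 0.5 h: Tnf, Ccl3, Ccl4, Cxcl2, Cxcl10 and Lif. Cxcl10 did not pass at 0.5 h by edgeR without mouse 1 (adjusted p = 0.38), mouse 2 (0.13) or mouse 3 (0.31). The median log2 change was 2.16, and 0 fell. Tnf stood at 11.9, 5.22 and 3.98 CPM at 0 h, 108, 128 and 124 at 0.5 h and 294, 377 and 210.2 at 1 h. The increase was stepwise in each mouse, with log2 changes of 4.13 ± 0.43 and 5.51 ± 0.45 (edgeR adjusted p = 0.0016 and 0.00060). Ccl4, a chemokine that draws monocytes and T cells, stood at 10.2, 7.94 and 15.2 CPM, then 333, 403 and 425, then 236, 331 and 195, and its neighbour Ccl3 at 4.64, 5.22 and 12.9, then 182, 255 and 183, then 219.6, 329 and 184. Both were far above 0 h in every stimulated library, and Ccl4 was lower at 1 h than at 0.5 h in each mouse. Their log2 changes at 0.5 h were 5.23 ± 0.32 (edgeR adjusted p = 0.00012) and 4.91 ± 0.44 (0.00074).

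Cxcl2, which draws neutrophils, had 3 counts at 0 h and stood at 133, 58.7 and 27.3 CPM at 0.5 h and 181, 169 and 138 at 1 h. The ratios to 0 h were 525 (179 to 2550) and 1110 (380 to 5400). Without mouse 2, Tnf, Ccl3 and Ccl4 had log2 changes of 3.92 to 5.02 at 0.5 h, and the lowest adjusted p of these 3 and Cxcl2 was 0.058. With the block as well, these 4 passed. Il6 had 0 counts at 0 h and stood at 2.50, 4.54 and 0.222 CPM at 0.5 h and 14.1, 0.212 and 0 at 1 h. It did not pass at either time, and 1 h libraries ranged down to 0. Il1b, the interleukin 1 precursor, stood at 19.5, 7.10 and 0 CPM at 0 h, 367, 128 and 60.9 at 0.5 h and 478, 248 and 123 at 1 h, highest in mouse 1 and lowest in mouse 3 at each time, the order of the neutrophil genes. It did not pass (edgeR adjusted p = 0.30 and 0.068), but did with mouse as a block (0.00026 and 6.1e-05). Monocyte and macrophage markers had the same order, and the part of neutrophil, monocyte or macrophage RNA in the level of Il1b was not tested.

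The promoters of genes that rose were read from RefSeq (build GRCm38.p6, matched by gene symbol), taking 250 bases before each listed start. Of the genes tested 8756 of 11676 matched, of those higher at 0.5 h 58 of 73 and of those higher at 1 h 170 of 225. The motifs searched, on both strands, were 5: the NF-kB site and the CArG box of serum response factor by name, the cyclic AMP response element TGACGTCA, the AP-1 site TGANTCA and the heat shock element GAANNTTC. The 9 promoters below were chosen after their matches were seen, to show which of these letters lie in front of genes described here, and capitals mark the matches.
Nfkbia: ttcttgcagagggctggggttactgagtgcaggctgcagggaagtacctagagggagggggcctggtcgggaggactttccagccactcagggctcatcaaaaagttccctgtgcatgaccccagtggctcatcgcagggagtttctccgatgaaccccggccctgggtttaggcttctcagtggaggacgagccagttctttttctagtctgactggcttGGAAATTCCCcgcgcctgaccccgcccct
Tnfaip3: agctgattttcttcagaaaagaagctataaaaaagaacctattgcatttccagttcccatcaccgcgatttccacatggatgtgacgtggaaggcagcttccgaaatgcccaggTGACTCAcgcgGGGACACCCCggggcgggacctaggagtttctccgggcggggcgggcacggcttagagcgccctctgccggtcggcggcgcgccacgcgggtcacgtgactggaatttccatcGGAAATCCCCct
Cxcl2: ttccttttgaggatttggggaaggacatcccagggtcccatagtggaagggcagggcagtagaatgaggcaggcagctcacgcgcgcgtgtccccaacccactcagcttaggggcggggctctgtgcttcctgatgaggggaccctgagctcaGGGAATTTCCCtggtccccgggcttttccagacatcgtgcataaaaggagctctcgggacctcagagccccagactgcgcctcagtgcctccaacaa
Egr2: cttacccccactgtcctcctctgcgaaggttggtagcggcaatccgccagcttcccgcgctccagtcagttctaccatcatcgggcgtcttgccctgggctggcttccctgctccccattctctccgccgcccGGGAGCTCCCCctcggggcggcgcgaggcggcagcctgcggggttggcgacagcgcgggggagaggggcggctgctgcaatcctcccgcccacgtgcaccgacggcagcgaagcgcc
Zfp36: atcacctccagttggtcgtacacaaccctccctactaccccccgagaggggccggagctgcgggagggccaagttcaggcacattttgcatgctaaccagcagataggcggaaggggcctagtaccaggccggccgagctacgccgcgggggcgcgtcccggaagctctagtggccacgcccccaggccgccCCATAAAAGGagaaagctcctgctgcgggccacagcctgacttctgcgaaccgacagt
Dusp1: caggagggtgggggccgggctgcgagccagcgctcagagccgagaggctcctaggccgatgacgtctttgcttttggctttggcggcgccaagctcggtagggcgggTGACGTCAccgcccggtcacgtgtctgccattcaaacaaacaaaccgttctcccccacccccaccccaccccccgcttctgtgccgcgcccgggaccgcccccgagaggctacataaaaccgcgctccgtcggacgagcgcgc
Btg2: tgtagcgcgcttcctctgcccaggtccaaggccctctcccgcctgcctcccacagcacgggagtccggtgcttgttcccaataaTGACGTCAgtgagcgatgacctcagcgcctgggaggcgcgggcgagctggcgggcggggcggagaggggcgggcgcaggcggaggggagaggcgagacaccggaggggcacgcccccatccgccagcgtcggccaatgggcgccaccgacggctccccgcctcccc
Ppp1r15a: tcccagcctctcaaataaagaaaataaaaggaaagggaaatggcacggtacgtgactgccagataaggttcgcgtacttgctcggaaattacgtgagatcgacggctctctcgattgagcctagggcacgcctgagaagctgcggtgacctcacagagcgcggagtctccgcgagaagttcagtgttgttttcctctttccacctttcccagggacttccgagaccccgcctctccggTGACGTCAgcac
Hspa1a: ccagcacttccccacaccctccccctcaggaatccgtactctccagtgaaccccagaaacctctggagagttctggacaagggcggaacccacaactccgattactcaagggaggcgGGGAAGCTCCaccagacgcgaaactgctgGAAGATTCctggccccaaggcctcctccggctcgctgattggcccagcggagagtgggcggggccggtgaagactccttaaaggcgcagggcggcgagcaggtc
These lie at chr12:55492648-55492897, minus strand (Nfkbia), chr10:19015411-19015660, minus strand (Tnfaip3), chr5:90903649-90903898, plus strand (Cxcl2), chr10:67535249-67535498, plus strand (Egr2) and chr7:28379229-28379478, minus strand (Zfp36). The other four lie at chr17:26508473-26508722, minus strand (Dusp1), chr1:134079156-134079405, minus strand (Btg2), chr7:45526269-45526518, minus strand (Ppp1r15a) and chr17:34972157-34972406, minus strand (Hspa1a). Capitals in Nfkbia, Cxcl2 and Egr2 are NF-kB sites, which overlap each other in Cxcl2 and Egr2. Tnfaip3 has 2 listed starts and Egr2 has 5, and a start with the most matches is shown, overlapping matches counted separately. At a start that is not shown, Egr2 also holds a CArG box. Tnfaip3 holds 2 NF-kB sites and an AP-1 site. Zfp36 holds a CArG box, Dusp1, Btg2 and Ppp1r15a a cyclic AMP response element, and Hspa1a an NF-kB site and a heat shock element.

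An NF-kB site was found for 24.1% of the matched genes higher at 0.5 h (14), 17.1% of those higher at 1 h (29) and 10.4% of all genes tested. The cyclic AMP response element was found for 17.2% (10), 9.41% (16) and 3.07%. For the CArG box the shares were 3.45%, 2.35% and 1.27%, for the AP-1 site 6.9%, 5.88% and 5.55%, and for the heat shock element 8.62%, 7.06% and 6.11%. Of the 15 genes that fell at 1 h, 14 matched, 1 held a heat shock element and 0 held any of the other 4 motifs. A gene counted where any of its listed starts held a match. Matched genes had on average 1.29 starts (higher at 0.5 h), 1.36 (higher at 1 h), 1.14 (lower at 1 h) and 1.27 (all tested). The motif shares are descriptions without a test, and a match does not show that a factor bound.

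Some stress genes also passed at 0.5 h. Hspa1a, the inducible Hsp70 chaperone, stood at 3.09, 7.31 and 15.7 CPM at 0 h, 871, 283 and 1807 at 0.5 h and 1293, 539.9 and 2230.2 at 1 h. It was lowest in mouse 2 at both stimulated times, and no stimulated library came near the 0 h range. The log2 change was 6.96 ± 0.93 at 0.5 h (edgeR adjusted p = 0.0077) and 7.53 ± 0.95 at 1 h (0.0031). Hspa1b is a near-identical copy, so the split of reads between both is uncertain, and its level was 46.9, 7.22 and 48.9 CPM at 1 h. Dnajb1, a co-chaperone of Hsp70, stood at 106, 91.7 and 100.3 CPM at 0 h and 515, 356 and 1369 at 0.5 h, without overlap. Its log2 change was 3.00 ± 0.46 (edgeR adjusted p = 0.017). Of 16 heat shock chaperones 2 rose at 0.5 h (median 0.99) and 5 at 1 h (median 1.56), 0 fell, and 11 rose at 1 h with mouse as a block.

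In the integrated stress response, which lowers translation and raises Atf4, 2 of 17 tested genes rose at 0.5 h and 3 at 1 h (5 with mouse as a block), with medians of 0.19 and 0.49. Atf4 itself stood at 122, 127 and 128 CPM at 0 h, 369, 261 and 402 at 0.5 h and 441, 437 and 461 at 1 h. The 3 mice were close before exposure and the 3 time points did not overlap. The log2 change was 1.55 ± 0.20 at 0.5 h (edgeR adjusted p = 0.0067) and 2.02 ± 0.21 at 1 h (0.0011). Ppp1r15a (Gadd34), which reverses the translational arm, rose by 4.63 ± 0.43 at 0.5 h, while Ddit3 (Chop) stood at 20.2, 17.3 and 16.4 CPM at 0 h and 31.6, 20.7 and 45.8 at 0.5 h and did not pass (edgeR adjusted p = 1.00).

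Of 19 tested p53 targets, 4 rose at 0.5 h, and 2 of these, Btg2 and Plk2, also stand among the groups above. The other two were Cdkn1a, the p21 inhibitor of cyclin-dependent kinases, and Pmaip1 (Noxa), which antagonises Mcl1. Cdkn1a stood at 16.9, 13.6 and 8.21 CPM at 0 h, 106, 112 and 194 at 0.5 h and 134, 282 and 454 at 1 h, and Pmaip1 at 6.79, 0.627 and 1.24, then 152, 92.1 and 77.5, then 93.6, 104 and 67.5. Both were separate from 0 h in every stimulated library, with log2 changes at 0.5 h of 3.48 ± 0.49 and 5.15 ± 0.72 (edgeR adjusted p = 0.011 and 0.010). Mcl1, the survival protein that Pmaip1 binds, rose by 1.38 ± 0.26 at 0.5 h and 2.12 ± 0.26 at 1 h. Without mouse 2 the stress and survival genes named with a value at 0.5 h had log2 changes of 1.58 to 7.30 and a lowest adjusted p of 0.13. With the block as well, these passed except Cdkn1a and Mcl1. Hspa1a, Dnajb1, Atf4 and Mcl1 did not pass at 0.5 h without mouse 1, nor Atf4 and Mcl1 without mouse 3.

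Other groups had no call by edgeR at 0.5 h. Of 7 receptor genes for the ligands 0 passed (median 0.15), of 26 TLR signalling genes 0 (0.10) and of 31 interferon-stimulated genes 0 (-0.18). Stem cell identity genes (0 of 24, median 0.00), MPP and lymphoid priming genes (0 of 23, -0.10) and cell cycle genes (0 of 29, -0.05) had medians near that of all genes, -0.02. An unadjusted p under 0.05 was found for 1, 2, 0, 2, 0 and 1 genes of these 6 groups. With mouse as a block 1 receptor, Cd14, passed at 0.5 h and DESeq2 called 1 receptor gene. The block and DESeq2 called 0 in the other 5 groups and limma voom 0 in all 6. The hairy-and-enhancer factor Hes1, the SMAD antagonist Skil and the survival kinase Pim3 rose, by 5.79 ± 0.48, 3.16 ± 0.46 and 1.67 ± 0.31 on the log2 scale (edgeR adjusted p = 0.00044, 0.012 and 0.047). Without mouse 2 these 3 had a lowest adjusted p of 0.13, and with the block as well Hes1 and Pim3 passed. Pim3 also lost the call without mouse 1 or mouse 3, and Skil without mouse 1.

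**Figure D2:**
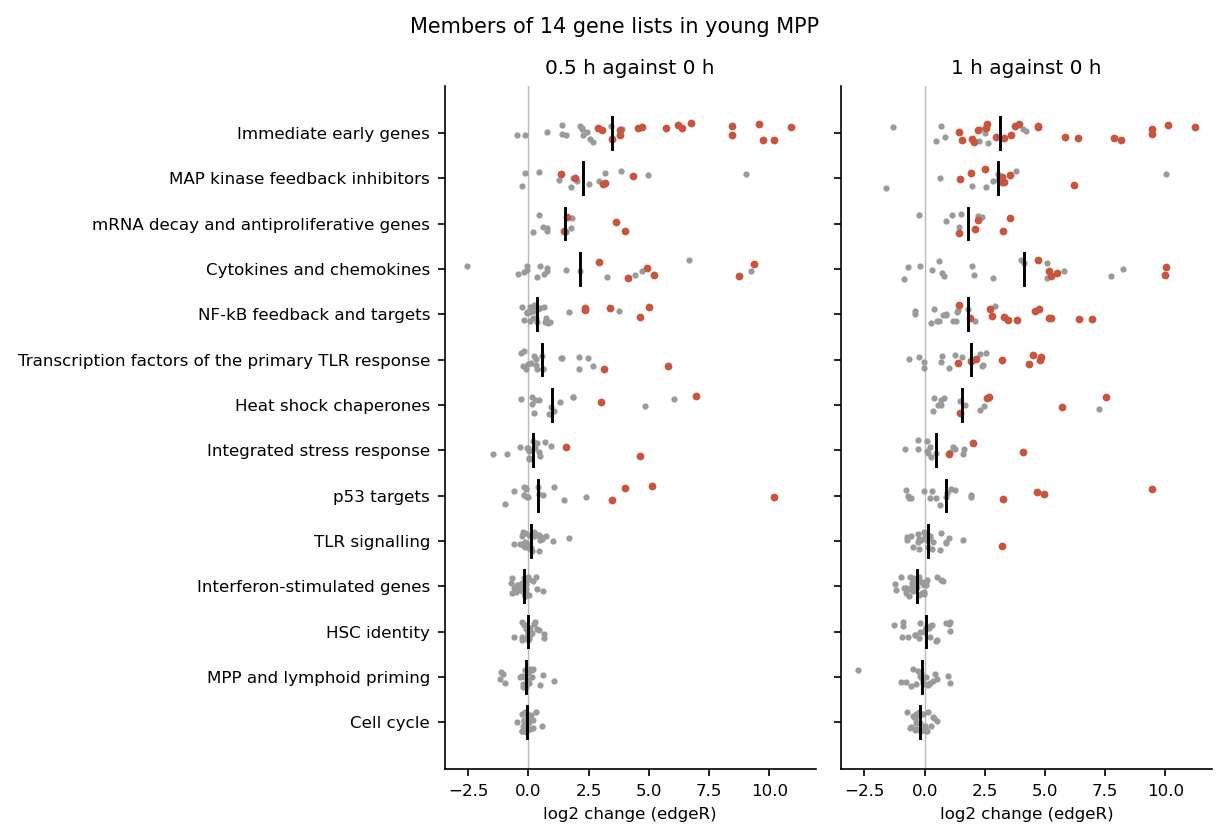
Log2 change of each tested member of 14 gene lists at 0.5 h and at 1 h against 0 h (edgeR; red points passed, grey points did not, the black tick is the list's median). The median of the NF-kB list lay at 0.35 at 0.5 h and 1.78 at 1 h, that of the immediate early genes at 3.45 and 3.13, and that of the interferon-stimulated genes at -0.18 and -0.30.

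By 1 h more genes passed, among them NF-kB subunits, surface molecules and Cd14, and some had fallen. Of 11676 genes 225 were higher (1.93%) and 15 lower (0.128%) by edgeR, with 1455 genes under 0.05 before adjustment. A block for mouse gave 556 that rose (4.76%) and 99 that fell (0.848%), and DESeq2 called 493 and 94. Here too the edgeR count fell most without mouse 2, to 1 gene, Nfkbiz, or to 197 genes with the block as well. Without mouse 1 edgeR called 110 genes and without mouse 3 it called 140. The comparison shares its 0 h libraries with the one at 0.5 h, so both are given side by side and no overlap is drawn from them.

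Among NF-kB genes 13 of 29 rose at 1 h, against 5 at 0.5 h, with a median of 1.78, and 0 fell. The additions included subunits of NF-kB itself. Nfkb2, which encodes the p100 precursor, stood at 27.7, 24.0 and 16.7 CPM at 0 h, 41.0, 36.8 and 42.0 at 0.5 h and 83.9, 99.5 and 232 at 1 h, and Relb, its partner, at 5.84, 11.3 and 20.4, then 14.4, 19.8 and 22.4, then 71.1, 54.1 and 228. Both were highest in mouse 3 at 1 h, and every 1 h library lay above every earlier one. Their log2 changes at 1 h were 2.79 ± 0.41 and 3.47 ± 0.62 (edgeR adjusted p = 0.0075 and 0.020). Rel, the lymphoid and myeloid subunit c-Rel, rose by 2.71 ± 0.41.

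Icam1, an adhesion molecule for leukocyte integrins, stood at 31.5, 50.1 and 62.0 CPM at 0 h, 49.6, 62.8 and 104 at 0.5 h and 146, 362 and 713 at 1 h. Cd83, known from mature dendritic cells, stood at 10.7, 12.1 and 1.49, then 41.0, 48.7 and 232, then 171, 704 and 1814 CPM. In both genes mouse 3 was the highest and mouse 1 the lowest at 1 h. The log2 changes were 3.30 ± 0.55 and 6.94 ± 1.19 at 1 h (edgeR adjusted p = 0.014 and 0.016). Traf1, an adaptor of TNF receptors, stood at 6.53, 3.34 and 3.73 CPM at 0 h, 1.87, 5.78 and 7.78 at 0.5 h and 40.2, 38.6 and 253 at 1 h. Its 0.5 h libraries overlapped those at 0 h, and its log2 change at 1 h was 4.76 ± 0.86 (edgeR adjusted p = 0.020). Without mouse 2, the log2 changes of Nfkb2, Relb, Rel, Icam1 and Cd83 at 1 h were 2.25 to 7.49, with a lowest adjusted p of 0.32. Relb, Rel and Icam1 passed without mouse 2 with the block as well. Relb and Cd83 did not pass without mouse 1 and Rel did not pass without mouse 3. Traf1 passed in none of the 3 fits that left out a mouse (adjusted p = 0.063, 0.41 and 0.10 without mice 1, 2 and 3, edgeR).

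Cd14, the coreceptor that hands LPS to Tlr4, was the 1 receptor gene of 7 that rose at 1 h by edgeR (median -0.01), and with mouse as a block Tlr2 passed too. It stood at 5.24, 3.55 and 1.24 CPM at 0 h, 88.9, 54.9 and 12.4 at 0.5 h and 322, 223 and 56.9 at 1 h. Every mouse increased at each step, from a level that was lowest in mouse 3, as were the neutrophil genes. The log2 change was 5.99 ± 0.93 at 1 h (edgeR adjusted p = 0.0097), and 3.99 ± 0.86 at 0.5 h with an adjusted p of 0.11, or 1e-05 with mouse as a block. Tlr2 stood at 40.0, 33.8 and 21.9 CPM at 0 h and 260.1, 159.8 and 45.3 at 1 h and did not pass (0.22, with the block 0.0081). Tlr4 stood at 32.1, 18.2 and 14.9 and 30.3, 21.4 and 10.3 CPM and did not pass (0.99). Monocyte and macrophage markers were lowest in mouse 3 as well, and so was Irg1. The part of neutrophil, monocyte or macrophage RNA in Cd14, Tlr2 and Irg1 was not tested.

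Irg1, which makes itaconate in activated myeloid cells, had 3 counts at 0 h and stood at 84.7, 28.1 and 0.889 CPM at 0.5 h and 463, 355 and 23.0 at 1 h. Mouse 3 was far below the other mice at both times, and the ratio of pooled levels to 0 h was 1930 (658 to 9340), with an adjusted p of 0.025 (edgeR), or 0.17 without mouse 1 and 0.66 without mouse 2. Of 26 TLR signalling genes 1 rose at 1 h (2 with the block), Map3k8 (Tpl2), the kinase that links TLRs to ERK. It stood at 11.7, 3.13 and 3.73 CPM at 0 h and 37.4, 78.7 and 38.6 at 1 h, without overlap, a log2 change of 3.19 ± 0.57 (edgeR adjusted p = 0.020). Among 15 tested activation surface genes 3 rose at 1 h (5 with the block): Cd69, Icam1 and Tnfrsf1b. Cd69, an early marker of activated lymphocytes, stood at 25.5, 46.0 and 42.8 CPM at 0 h, 139.7, 200.3 and 654 at 0.5 h and 213, 603 and 1187 at 1 h. Mouse 3 was highest at both stimulated times. Its log2 change at 1 h was 4.34 ± 0.75 (edgeR adjusted p = 0.016), and that of Tnfrsf1b, the second TNF receptor, 1.64 ± 0.23 (0.0055). Without mouse 2 these genes and Cd14 had a lowest adjusted p at 1 h of 0.41, and with the block as well these passed except Map3k8. Cd14 did not pass without mouse 1, nor Map3k8 without mouse 3.

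Of 21 transcription factors of the primary TLR response 8 rose at 1 h (median 1.93), against 2 at 0.5 h (median 0.57), or 7 at 0.5 h with mouse as a block. Crem, a cyclic AMP responsive factor, stood at 9.02, 10.4 and 8.21 CPM at 0 h, 21.2, 38.0 and 85.5 at 0.5 h and 112, 187 and 245 at 1 h. Nfe2l2 (Nrf2), the regulator of antioxidant genes, stood at 139, 84.6 and 93.6, then 148, 145 and 147, then 376, 349 and 336 CPM. Nfe2l2 at 1 h was separate from both earlier times and differed little between mice. The log2 changes at 1 h were 4.48 ± 0.52 and 1.93 ± 0.23 (edgeR adjusted p = 0.0021 and 0.0022). Skil stood at 20.2, 17.6 and 8.71 CPM at 0 h, 86.4, 86.7 and 224 at 0.5 h and 315, 369 and 499.8 at 1 h, each time point above the one before, and its change at 1 h was 4.84 ± 0.50. Bcl2l11 (Bim), which promotes cell death, stood at 10.2, 10.4 and 12.2, then 28.5, 53.3 and 207, then 276, 375 and 1072 CPM, separate at each time. Its log2 change at 1 h was 5.91 ± 0.84 (edgeR adjusted p = 0.0061).

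The cytokine signalling inhibitors Socs3 and Cish rose at 1 h, by 2.89 ± 0.57 and 2.42 ± 0.47 (edgeR adjusted p = 0.030 and 0.028), among 3 of 22 genes of the SOCS, JAK-STAT and Pim list. Stat3, a signal transducer that was listed here together with the transcription factors Klf5 and Ikzf1, stood at 189, 178 and 266 CPM at 0 h and 434, 312 and 388 at 1 h and missed the threshold (edgeR adjusted p = 0.056, with the block 0.0015). Klf5 stood at 2.05 ± 2.63 CPM at 0 h and 8.23 ± 6.01 at 1 h (mean ± SD) and Ikzf1 at 181, 153 and 178 and 137, 157 and 129, and neither passed. Insig1, a sterol sensor of the endoplasmic reticulum, rose by 1.21 ± 0.25. Tfrc, the transferrin receptor, rose by 1.47 ± 0.29 as 1 of 12 erythroid genes, a list whose median was -0.20. Klf9 and Ccng2 rose by 3.30 ± 0.64 and 2.29 ± 0.47 as 2 of 17 FoxO and glucocorticoid targets, of which 1, Pik3ip1, fell. Without mouse 2, Crem, Nfe2l2, Skil, Bcl2l11, Socs3, Cish, Insig1, Tfrc, Klf9 and Ccng2 had log2 changes of 0.94 to 6.13 at 1 h and a lowest adjusted p of 0.18. With the block as well, Crem, Nfe2l2, Skil, Bcl2l11 and Klf9 passed. Cish, Insig1, Klf9 and Ccng2 did not pass without mouse 1 or without mouse 3, Socs3 without mouse 1 and Tfrc without mouse 3.

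At 1 h 22 of 32 immediate early genes were higher than at 0 h (median 3.13), 8 of 18 MAP kinase feedback genes (3.05) and 6 of 23 cytokine genes (4.12), or 12 of these with mouse as a block. Errfi1, a feedback inhibitor of the EGF receptor, stood at 3.01, 1.04 and 2.99 CPM at 0 h, 16.0, 4.13 and 17.3 at 0.5 h and 27.9, 105 and 336 at 1 h. Mouse 3 was highest and mouse 1 lowest at 1 h, and the log2 change was 6.22 ± 0.98 (edgeR adjusted p = 0.010). Dusp3 rose by 2.53 ± 0.33 and Klf6, a zinc finger factor, by 2.05 ± 0.41. Klf6 lost the call without mouse 1 or mouse 3, and without mouse 2 Errfi1, Dusp3 and Klf6 had a lowest adjusted p of 0.32. With the block as well, Errfi1 and Dusp3 passed. Interferon-stimulated genes (0 of 31, median -0.30), stem cell identity genes (0 of 24, 0.04), MPP and lymphoid priming genes (0 of 23, -0.11) and cell cycle genes (0 of 29, -0.18) had no call by edgeR at 1 h. In these groups 7, 2, 2 and 1 genes had an unadjusted p under 0.05, DESeq2 called 0, 1, 1 and 0, and limma voom 0, 1, 0 and 0. With mouse as a block 1 stem cell identity gene rose and 1 fell, and 1 MPP gene rose and 2 fell, and 0 of the other two groups passed.

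The 15 genes that fell at 1 h had log2 changes from -2.29 (Gm12250) to -1.01 (Tmem229b). Fadd, the adaptor of death receptors, stood at 27.6, 40.5 and 31.4 CPM at 0 h, 17.1, 15.3 and 22.9 at 0.5 h and 5.66, 7.85 and 8.01 at 1 h. Mycn, a Myc family factor, stood at 43.6, 55.6 and 88.3, then 34.1, 36.8 and 36.7, then 7.88, 23.1 and 8.86 CPM, and Pik3ip1, an inhibitor of PI3 kinase, at 85.5, 93.4 and 101, then 97.2, 59.1 and 89.3, then 17.0, 26.3 and 39.9. In these 3 genes every 1 h library lay below every library of the other two time points. Their log2 changes at 1 h were -2.01 ± 0.36, -2.03 ± 0.44 and -1.55 ± 0.33 (edgeR adjusted p = 0.020, 0.047 and 0.043). Gm12250 (-2.29 ± 0.38), 2610035D17Rik (-2.17 ± 0.47), Bola1 (-1.70 ± 0.32), Tor4a (-1.50 ± 0.24) and D6Wsu163e (-1.50 ± 0.31) complete the 8 lowest.

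Lyl1, a basic helix-loop-helix factor of stem cells and lymphoid progenitors, stood at 193, 212 and 208 CPM at 0 h, 164, 162 and 148 at 0.5 h and 97.0, 73.0 and 62.8 at 1 h, separate at each time. It fell with a log2 change of -1.21 ± 0.21 (edgeR adjusted p = 0.016), and did not pass without mouse 2 (0.59) or mouse 3 (0.14). Myc stood at 412, 619 and 681 CPM at 0 h and 216, 235 and 158 at 1 h and missed the threshold, with 0.067 by edgeR and 0.0081 with the block. The 8 lowest genes all lost the call without mouse 1, without mouse 2 and without mouse 3, with log2 changes of -2.75 to -1.50 without mouse 2. With the block as well, only Mycn and Tor4a of these passed without mouse 2. Falls also depend on scaling: the median log2 change of all genes at 1 h was -0.05 with TMM and -0.24 with library size alone, under which 154 genes were called higher and 26 lower.

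The step from 0.5 h to 1 h gave 0 calls by edgeR, 769 genes at an unadjusted p under 0.05, and a median log2 change of -0.01. With mouse as a block, which compares both times within a mouse, 51 genes rose (0.437%) and 5 fell (0.0428%), DESeq2 called 64 and 23, and limma voom 6 and 1. The blocked count depends on which mice are included: it was 149 without mouse 1, 1 without mouse 2 and 14 without mouse 3. Of 29 NF-kB genes 7 rose in the step with the block, while of 32 immediate early genes 0 rose and 1, Fos, fell. The median changes of these lists in the fit without the block were 1.20 and -0.19. Nfkbiz changed by 1.76 ± 0.26 in the step by edgeR without the block, with an adjusted p of 0.37, or 0.0027 with the block. Fos changed by -2.45 ± 0.43 (0.37, with the block 0.012).

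Some other named genes that passed the step in the blocked fit are given here for that call. Their changes and SE are from edgeR without the block, and the adjusted p in brackets are from the blocked fit. Tnfaip3 changed by 1.78 ± 0.43 (adjusted p = 0.0081 with the block), Nfkbia by 1.49 ± 0.30 (0.034), Icam1 by 2.60 ± 0.54 (0.0049) and Relb by 2.74 ± 0.61 (0.019). Cd14 changed by 2.00 ± 0.76 (0.0027), Bcl2l11 by 2.69 ± 0.72 (0.0081) and Nfe2l2 by 1.35 ± 0.22 (0.0081). By edgeR without the block these 7 had adjusted p from 0.37 (Nfe2l2) to 0.69 (Cd14). In the same form, Irg1 changed by 2.93 ± 1.28 (0.0087), Crem by 2.02 ± 0.47 (0.022), Cish by 2.20 ± 0.47 (0.025) and Gadd45b by 2.25 ± 0.42 (0.038). Lyl1 fell in the step, by -0.94 ± 0.21 (0.042). Without the block the adjusted p of these genes ran from 0.39 (Gadd45b) to 0.74 (Irg1) by edgeR. Sqstm1, the autophagy receptor p62, stood at 286, 211 and 306 CPM at 0 h, 424, 404 and 449.8 at 0.5 h and 918, 1003 and 1394 at 1 h. It was separate at each time and changed by 1.47 ± 0.23 in the step (0.37, with the block 0.0040). Egr1, with a step of -2.07 ± 0.61, did not pass in either fit (0.56 and 0.055), nor did Junb at -0.20 ± 0.24 (0.98 and 0.66).

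**Figure D3:**
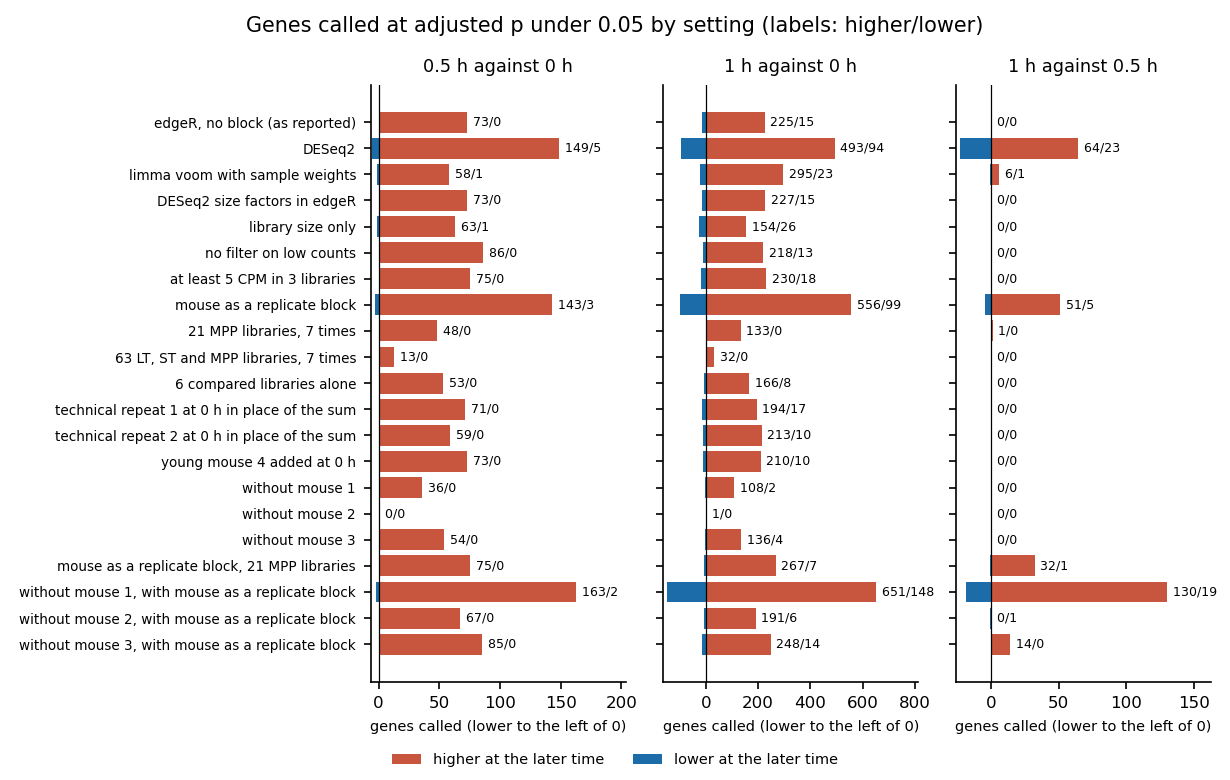
Number of genes called higher and lower in each of the 3 comparisons under the main edgeR fit and its alternatives (bars, adjusted p under 0.05). At 0.5 h the count ran from 0 without mouse 2 to 165 with mouse as a block and mouse 1 left out, and the step had 0 calls by the main fit and 56 with the block.

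The change was compared with that in LT and in short-term stem cells (ST) of the same mice by an interaction term over 12962 genes. No gene passed by edgeR in any of the 4 contrasts (0%), with 251 and 126 genes at an unadjusted p under 0.05 against LT and ST at 0.5 h, and 328 and 124 at 1 h. With mouse as a block 0 passed, while DESeq2 called 79, 32, 92 and 41 in the same order. The log2 change of Nfkbiz was 5.48 ± 0.54 in LT and 6.64 ± 0.57 in ST at 0.5 h, and the difference of MPP from ST was -2.01 ± 0.64 (unadjusted p = 0.0048, adjusted p = 1.00, edgeR). That of Fos was 4.99 ± 0.91 in LT and 6.22 ± 0.96 in ST at 0.5 h. That of Lyl1 was -1.62 ± 0.29 in LT and -1.78 ± 0.29 in ST at 1 h. A p that misses the threshold does not show that the cell types responded alike.

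Old mouse 2 was the other animal whose MPP received both ligands, with 1 sample per time (0 h summed over 2 technical repeats) and no test. Of the 73 genes higher in young MPP at 0.5 h, 73 were higher in old mouse 2 at 0.5 h than at 0 h, with a median log2 ratio of CPM + 1 of 2.56, against 44% of all genes tested. Of the 225 genes higher at 1 h, 224 were higher in that mouse (median 1.65, against 34.1% of all genes), and of the 15 lower 0 were higher (median -1.20). Nfkbiz in its MPP stood at 14.9, 251 and 792 CPM at 0 h, 0.5 h and 1 h, and Fos at 24.9, 709 and 182.

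Cells grown without ligand were collected at 2 h in young mouse 4 and old mouse 4, a later time than the 2 compared here, so values are given side by side. Of the 73 genes 62 and 70 were higher at 2 h than at 0 h without ligand, with medians of 1.32 and 1.97, against 37.2% and 38.8% of all genes. Of the 225 genes 197 and 198 were higher (medians 1.10 and 1.26), and of the 15 lower genes 2 and 1. Hspa1a went from 2.24 to 996 CPM in young mouse 4 and from 9.53 to 2878 in old mouse 4 without ligand, and Cd14 from 5.22 to 515 and from 0.433 to 482. At 2 h without ligand Cd14 lay above the 3 young libraries at 1 h with ligands, and Hspa1a lay within their range in young mouse 4 and above it in old mouse 4. Sqstm1 reached 1328 and 1722 CPM and Atf4 455 and 545, from 175 and 189 at 0 h. With the ligands at 2 h, Hspa1a stood at 844, 317 and 890.0 CPM in young mice 1 to 3, Cd14 at 529, 466 and 53.2, Sqstm1 at 2579, 3804 and 4023 and Atf4 at 392, 443 and 343.

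Some genes had lower levels at 2 h without ligand than with it. Nfkbiz stood at 36.7 and 51.1 CPM, from 14.5 and 6.93, against 664, 863 and 745 with the ligands at 2 h in young mice 1 to 3. Nfkbia stood at 199.5 and 200.5, from 186 and 80.1, against 1147, 1720.3 and 1399 with the ligands. Junb stood at 174 and 248, against 831, 674 and 438. Fos levels at 2 h overlapped between the courses, at 45.1 and 40.7 CPM without ligand and 40.9, 43.3 and 50.5 with the ligands. Lyl1 went from 124 to 20.5 and from 89.6 to 28.6 CPM without ligand, and stood at 45.9, 37.8 and 30.0 at 2 h with the ligands. With 1 library per animal and time, and different animals in the courses, no difference between courses was tested.

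**Figure D4:**
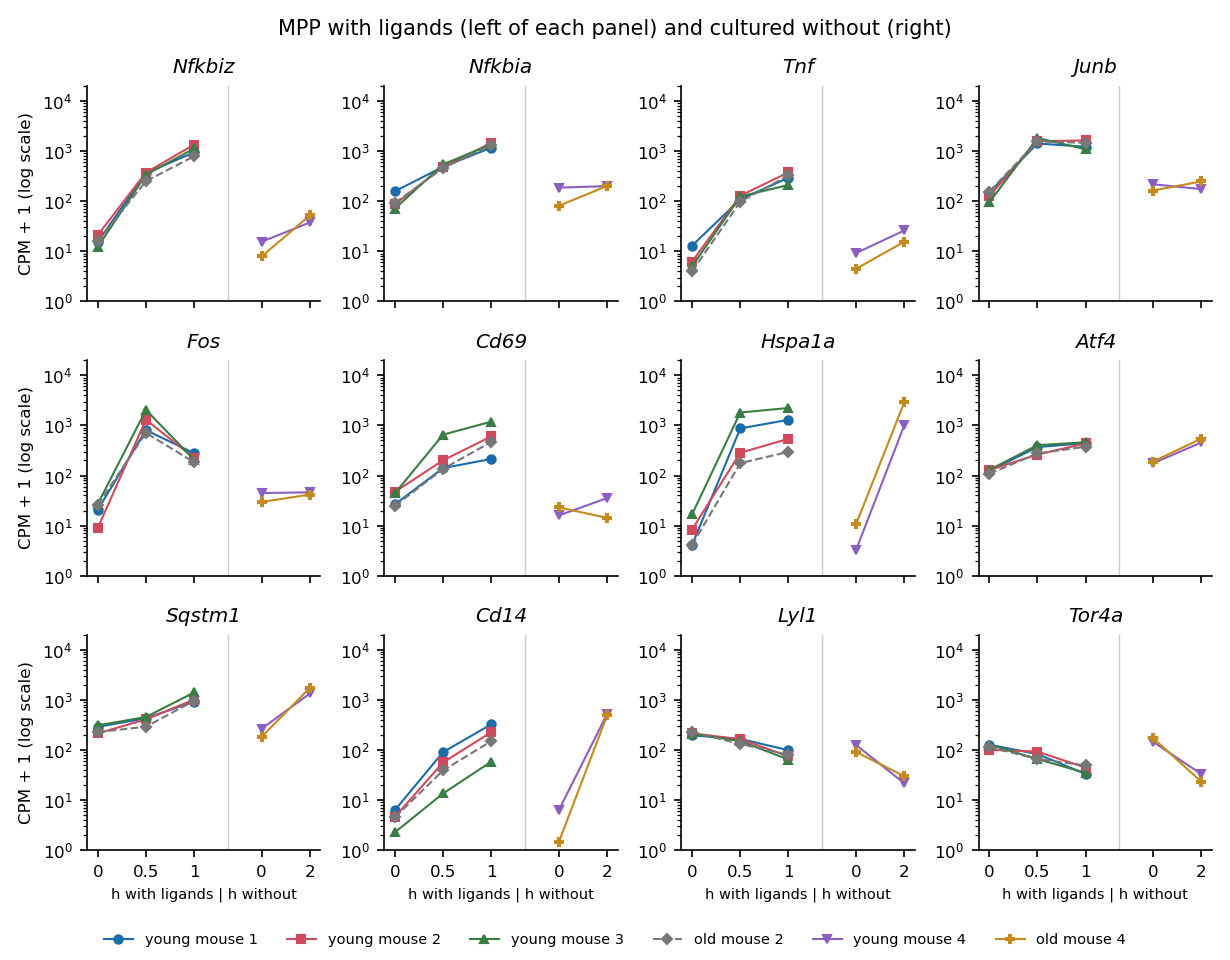
Levels of 12 genes (CPM + 1, log axis) in MPP of young mice 1, 2 and 3 and old mouse 2 with LPS and Pam3csk4 at 0 h, 0.5 h and 1 h, and of young mouse 4 and old mouse 4 without ligand at 0 h and 2 h (1 line per animal). Nfkbiz and Junb without ligand at 2 h lay below every library of young mice 1 to 3 at 0.5 h and 1 h, whereas Cd14 without ligand lay above all of those.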

How the data were processed

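Bulk RNA of MPP was analysed. The deposited table gives an expected count for each symbol, and the submitters' processing notes name RSEM and genome build mm9 (89.5% of values are whole; strand setting and annotation are not given in the sources used here). Groups came from the labels. Technical repeats were summed and rounded, and libraries under 1000 counts would be dropped (0 here). The repeats at 0 h correlated at r = 0.858 and 0.891 in mice 1 and 2 (log2 CPM, across genes with 10 counts, which are not independent) and differed by more than sampling noise.

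The fit used edgeR 4.0.16 under R 4.3.3 (TMM, filterByExpr, quasi-likelihood F tests, 2-sided, Benjamini-Hochberg within a comparison, threshold 0.05) on 9 libraries and 11676 genes. The difference from LT and ST was an interaction term over 27 libraries. Libraries that share a mouse number were taken as 1 animal. Residuals of 1 mouse correlated at 0.315 to 0.409, 0.0990 to 0.171 and 0.617 to 0.688 across genes in mice 1, 2 and 3. Between mice they correlated at 0.0952 to 0.152 (1 and 2), -0.534 to -0.422 (1 and 3) and -0.295 to -0.178 (2 and 3). The values within mouse 2 overlapped those between mice 1 and 2, so they do not set mouse 2 apart from mouse 1. The fit with mouse as a block was an alternative, as were DESeq2 1.42.0, limma 3.58.1 (voom), other scalings, filters, baselines and sets of libraries, and leaving out each mouse. The steps were tested on simulated data. Plots used matplotlib 3.10.9 under Python 3.11.15.

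The libraries and gene lists were chosen with earlier results of these data known. Genes were named by rule: per comparison the 8 strongest called changes each way among genes that reached an average of 10 CPM and moved alike in the 3 mice, up to 4 called members of a list, by lowest p, and 40 fixed genes. Cxcl10, Ddit3, Gadd45b, Lyl1, Sqstm1, Tmem229b and Traf1 were chosen after their values were seen. The labels do not say whether mice were processed separately beyond the date in the column names.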

Additional observations from a re-analysis of the deposited data

How the results depend on the processing

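Of the 122 calls of named genes and the counts below, 0 reversed direction under the alternatives run. For 0.5 h against 0 h (73 genes called), DESeq2 called 154, mouse as a replicate block 146, the fit of 21 MPP libraries at 7 times 48 and the fit of 63 LT, ST and MPP libraries 13. Leaving out 1 mouse gave 0 to 54, and with the block 67 to 165 (165 without mouse 1). For 1 h against 0 h (240 called) these were 587 by DESeq2, 655 with the replicate block, 133 with 21 libraries and 32 with 63, with 1 to 140 leaving out 1 mouse and 197 to 799 with the block as well (799 without mouse 1). For 1 h against 0.5 h (0 called) DESeq2 called 87, limma voom 7, the replicate block 56, 21 MPP libraries 1 and the block with 21 libraries 33. With the block and without mouse 1, 2 or 3 the step gave 149, 1 and 14. In the interactions (0 called), DESeq2 called 79 against LT and 32 against ST at 0.5 h, and 92 and 41 at 1 h. Without mouse 3, 1 gene passed against LT at 0.5 h and 13 at 1 h. The leave-out fits hold fewer samples, and the cause of these differences was not tested. The block with 21 libraries and the leave-outs with the block were chosen after seeing the data.

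Of 122 calls of named genes, the replicate block kept 122, DESeq2 120 of the 120 it gave a value for, DESeq2's size factors 122, a filter at 5 CPM 122, no filter 119, library size alone 105, limma voom 96, each comparison's 6 libraries alone 96, 21 libraries 82 and 63 libraries 33. Leaving out mouse 1, 2 or 3 kept 72, 1 and 88, and with the replicate block as well 122, 86 and 103. With all 3 mice in the fit, the block ended 0 of these calls. Depth limits genes near 0 counts at 0 h, where folds are bounds or wide intervals, and with 3 mice and a biological coefficient of variation of 0.529 smaller changes could have been missed. Mouse, date and the RNA of neutrophil, monocyte and macrophage markers move together, as do ligand and culture time.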
